A study of Mus musculus with 12 samples.

Results

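Tumor organoids in which SMAD4 had been put back were compared between tissue culture plastic and BME, to see which differences in gene expression between these growth environments were present while SMAD4 was expressed. The comparison rests on 5 of the 12 RNA-Seq libraries of the series, chosen by their labels as the libraries of the SMAD4 construct treated with dox. There are 3 such libraries on plastic (organoid lines 560, 700 and 889) and 2 in BME (lines 700 and 889), so lines 700 and 889 were measured in both environments and line 560 on plastic alone. A library of line 682 in BME that is labelled as mock with dox was left out.

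All organoids came from small intestinal tumors and were labelled with the genotype Smad4KO; BRAFV600E/+; pINDUCER-SMAD4. Cre was driven by the Villin promoter (Villin-CreERT2), so the deletion of Smad4 and the activation of BRAF were placed in the intestinal epithelium, and each line was a lentivirally transduced culture kept under puromycin selection. The dox groups received 4 µg/mL doxycycline for 48 h. The untreated groups had the same genotype label and received vehicle without dox, with 3 libraries on plastic (lines 560, 700 and 889) and 3 in BME (lines 682, 700 and 889). BME is a gel of basement membrane proteins in which organoids grow in 3 dimensions, and organoids without it were grown as a flat sheet. Since no library on plastic received dox without SMAD4, a response to dox and a response to SMAD4 cannot be told apart there.

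SMAD4 is the shared partner of the receptor-activated SMADs of the TGFβ and BMP pathways, and it is often lost in advanced colon cancer. Epithelial cells sense a basement membrane through integrins, which connect laminin and collagen outside the cell to the actin cytoskeleton inside. Cells on a stiff flat surface build focal adhesions, and the transcriptional coactivator YAP is known to enter the nucleus under such conditions.

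The deposited values are FPKM, in 1 table per environment that was normalized on its own, and each library was rescaled here to a sum of 1000000. A level below is such a rescaled FPKM value, and a difference is plastic minus BME in log2(level + 1), which understates the change of low genes. Levels are given in the order of lines 560, 700 and 889 on plastic and 700 and 889 in BME. The matrix, the table and any batch of library preparation cannot be told apart, although a factor common to a whole table cancels in the change of the matrix difference with dox. The 5 dox libraries held about 12100000 to 16900000 reads, estimated from the smallest values of protein-coding genes. The epithelial markers (10 genes) summed to 20578 to 26659 rescaled FPKM on plastic with dox and to 12193 and 16971 in BME with dox. Krt18 was the highest marker in each dox library, at 14240 in plastic dox line 700. The median difference of the 10 markers was -0.18, with 4 higher on plastic in line 700 and 3 in line 889. The fibroblast markers (12 genes) summed to 0.637 to 0.918 on plastic with dox against 1.71 and 12.3 in BME with dox, with Col1a1 at 6.98 in BME line 889, and 2 to 6 of the 12 were at 0 in a dox library. The immune cell markers summed to 6.66 to 64.2 against 21.1 and 13.4, mostly Cd68, and the endothelial markers to 5.47 to 18.3 against 6.46 and 27.4, mostly Esam. The part of these markers in the results was not tested.

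Organoid lines were told apart by 4 genes that were on in every library of line 700 and off in every library of line 889, and by 12 genes with the reverse pattern. Both libraries of line 560 had 0 of the 4 on and had 12 and 11 of the 12 on, as in line 889, while the BME libraries of line 682 had 4 of the 4 on and 0 and 1 of the 12 on, as in line 700. The BME dox library of line 889 correlated more closely with plastic dox line 560 (Spearman 0.938 across genes) than with BME dox line 700 (0.907). Whether these lines share an origin was not tested. In the untreated comparison line 560 stands on plastic alone and line 682 in BME alone. Differences between these lines are therefore mixed with the matrix there unless the line is a block.

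Smad4 itself was examined first, because dox was given to switch on the construct. On plastic with dox its level was 139, 27.7 and 79.2 (rescaled FPKM), and in BME with dox it was 26.2 and 46.0. Untreated levels were 2.18, 5.22 and 8.92 on plastic and 14.3, 10.5 and 10.9 in BME (lines 682, 700 and 889). All 5 dox libraries lay above all 6 untreated libraries, whereas the dox groups overlapped by matrix, since line 700 on plastic lay below line 889 in BME. The difference was 0.94 (SE 0.64, limma adjusted p = 0.401), with 0.073 within line 700 and 0.77 within line 889. An exact permutation test, two-sided, of 3 against 2 libraries gave p = 0.4, where the smallest p the design allows is 0.2. Among all 24906 genes Smad4 lay at the 95.3, 82.6 and 92.2 percentile on plastic and at the 79.8 and 86.0 percentile in BME. Restored Smad4 was therefore highest in line 560, which has no counterpart in BME, and how far the later differences follow its level was not tested.

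Krt19, a keratin of simple epithelium, was abundant in all 5 dox libraries. It measured 5774, 2489 and 4286 rescaled FPKM on plastic with dox and 2301 and 4314 in BME with dox, and these groups overlapped (difference 0.33, SE 0.40, limma adjusted p = 0.646). Without dox the groups were apart, with 8091, 7324 and 7422 on plastic against 1247, 1589 and 2366 in BME, and the untreated difference of 2.18 passed the test (limma adjusted p = 0.00865). The change of the matrix difference with dox was -1.86 (SE 0.53, unadjusted p = 0.00583) and did not pass over all genes (limma adjusted p = 1.000). Krt19 lies on chromosome 11 from 100002124 to 100009979 (NCBIM37). Without the BME dox library of line 700 the dox difference was -0.13.

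Pcp4, which encodes a small calmodulin-binding protein, was high with dox in 4 of the 5 libraries. It was at 2339, 58.8 and 4549.8 rescaled FPKM on plastic with dox and at 1764 in BME with dox in line 889, but it was listed at 0 in BME with dox in line 700. Every untreated library was at or below 4.51. The difference by matrix of 4.36 (SE 2.66) did not pass (limma adjusted p = 0.349), and it was -1.04 without the BME dox library of line 700.

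**Figure D1:**
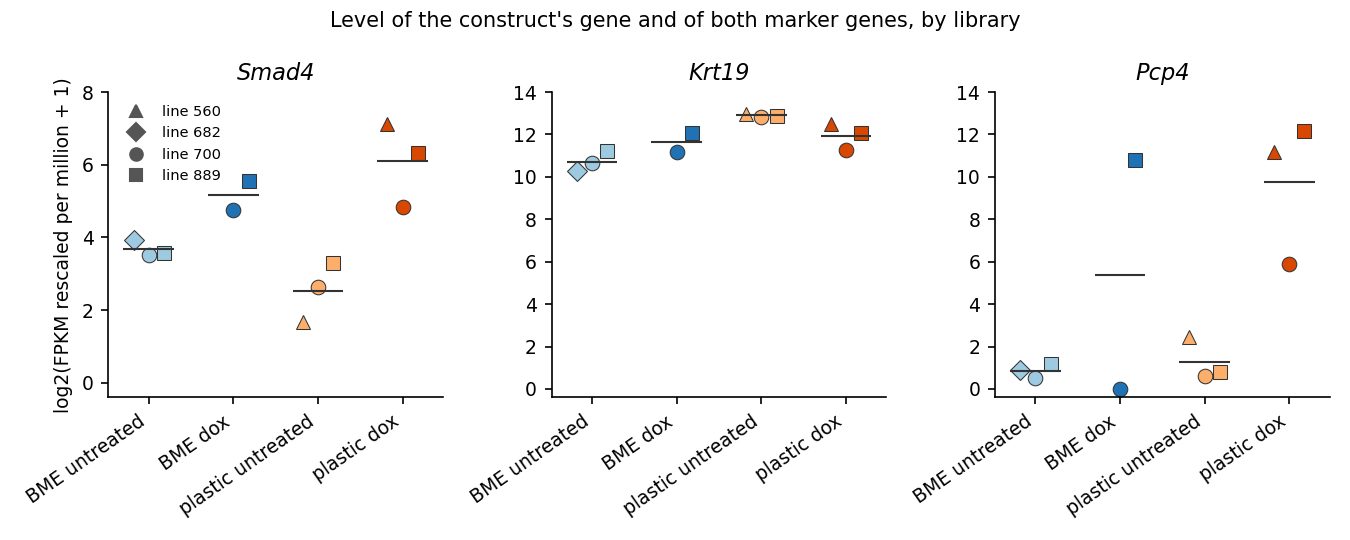
Levels of Smad4, Krt19 and Pcp4 as log2(rescaled FPKM + 1) in the 4 groups, with 1 point per library, shapes for organoid lines and a bar at each group's mean on this scale. Smad4 is higher in the 5 dox libraries than in the 6 untreated ones, Krt19 separates by matrix in the untreated groups, and Pcp4 is high in 4 of the 5 dox libraries.

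The number of genes called between the SMAD4-expressing groups depended on the fit. Of 12539 genes with a mean level of at least 1 over the 11 libraries without the mock, limma called 194 at an adjusted p under 0.05 and a difference over 1, which is 1.55% of genes tested. Of these, 83 were higher (0.662%) and 111 lower (0.885%) on plastic, and 2896 genes (23.1%) had an unadjusted p under 0.05, the background for the unadjusted counts given for gene lists. When the 5 dox libraries were fitted alone, without the untreated libraries in the estimate of the spread, limma called 1 gene. With the organoid line as a block, 1865 genes (14.9%) were called, of which 582 were higher (4.64%) and 1283 lower (10.2%), and the 194 genes were all among them. The shares higher and lower, without and with the block, are the background for the calls given for gene lists. The count moved by more than 1.5 times when any library but the untreated plastic library of line 889 was left out: it was 10 without BME dox line 700, 24 without BME dox line 889, 38 without plastic dox line 889, 61 without plastic dox line 700 and 1211 without plastic dox line 560, and among untreated libraries it was 478 without plastic line 560, 106 without plastic line 700 and 91, 93 and 89 without BME lines 682, 700 and 889. The median difference of all tested genes was -0.23, and other scalings move it to 0.01 (median-ratio) or 0 (quantile). Genes higher on plastic made up 42.8% of the calls, against 67.3% (169 higher and 82 lower) with median-ratio scaling and 63.8% (139 and 79) with quantile normalization, so the balance of directions depends on the scaling.

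A description by library gave larger numbers. A gene was set apart when all 3 plastic dox libraries lay on the same side of both BME dox libraries and lines 700 and 889 each differed by more than 1 in that direction. This held for 443 genes higher on plastic (3.53%) and 1019 lower (8.13%), and 192 of the 194 called genes were among them. The higher share of these genes was 30.3%, against 56.9% with median-ratio scaling and 52.6% with quantile normalization. By rank within each library, 438 of the 443 and 941 of the 1019 were apart as well, beside 19.9% and 18.7% of all tested genes. The set-apart genes were chosen by separation of the same libraries, so the ranks describe them and give no independent support. In the pair of lines, 499 tested genes were higher on plastic by more than 1 in both and 1414 lower in both, while 56 differed by more than 1 in opposite directions. In these bulk samples, fewer cells of a type and less RNA per cell cannot be told apart.

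**Figure D2:**
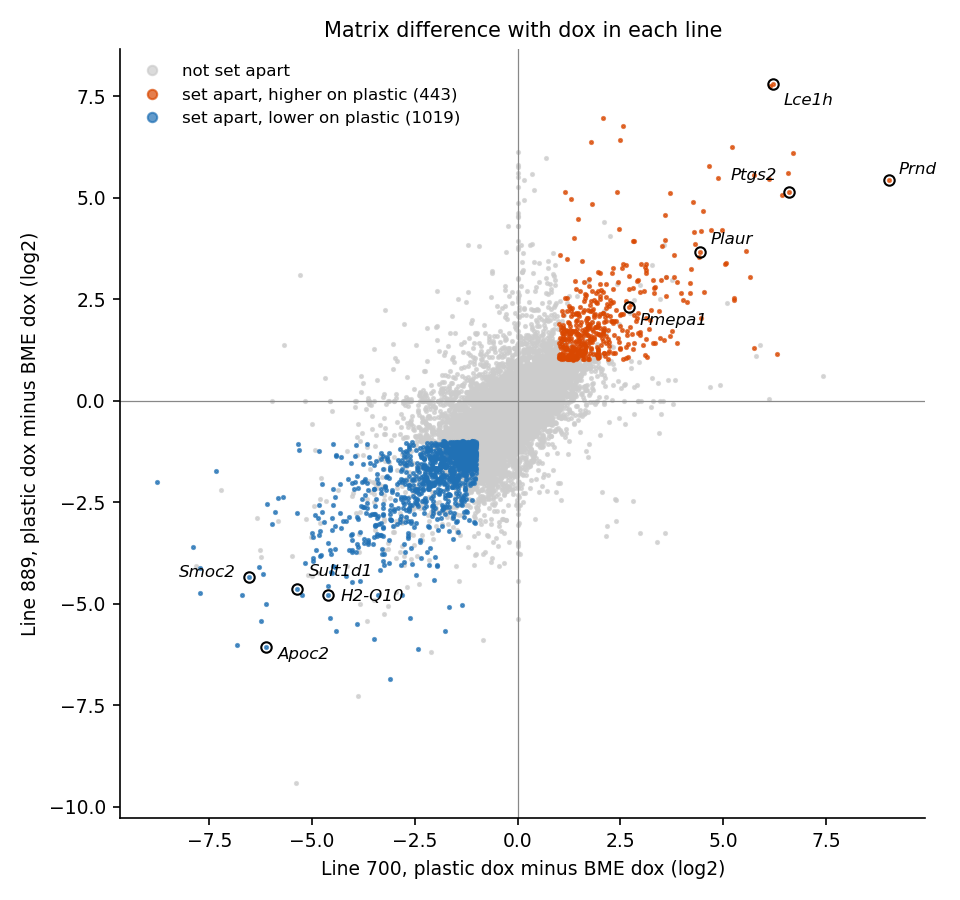
Plastic dox minus BME dox (log2) in line 700 on the x axis and in line 889 on the y axis, with 1 point for each of the 12539 tested genes. The 443 genes set apart as higher on plastic and the 1019 set apart as lower are coloured and fill opposite corners by construction, and 56 genes differ by more than 1 in opposite directions.

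Among genes higher on plastic with dox, the 12 genes with the largest difference in the line that differed less, among called genes with a mean level of at least 10 in the higher group, began with Lce1h, a late cornified envelope gene of the epidermis. Lce1h was at 120.4, 72.7 and 221 rescaled FPKM on plastic with dox and was listed at 0 in both BME dox libraries (difference 6.97, SE 0.76, limma adjusted p = 0.00457). Crct1, from the same epidermal gene cluster, was at 218, 883 and 938 against 11.5 and 3.39 (difference 6.26, SE 0.79, adjusted p = 0.00755). S100a7a, an antimicrobial S100 protein gene, was at 82.1, 106 and 79.9 against 0.983 and 0.721 (difference 5.60, SE 0.37, adjusted p = 0.000410). In each the plastic libraries stood well above both BME libraries. All 3 genes lie on chromosome 3 (NCBIM37), S100a7a from 90458224 to 90462052, Lce1h from 92567137 to 92568987 and Crct1 from 92818127 to 92819609.

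Il1a, Ptgs2 and Csf2 were among these 12 genes. Il1a, an alarm cytokine of epithelium, measured 646, 691 and 2057 rescaled FPKM on plastic with dox and 22.5 and 44.7 in BME with dox (difference 4.89, SE 0.75, limma adjusted p = 0.020). Ptgs2, the inducible prostaglandin synthase, measured 223, 206 and 645 against 1.13 and 17.4 (difference 5.63, SE 1.13, adjusted p = 0.0432). Csf2, which encodes the growth factor GM-CSF, measured 74.5, 45.8 and 174 against 0.258 and 1.30 (difference 5.65, SE 0.64, adjusted p = 0.00460). Line 889 was the highest plastic library in all 3 genes, and no group overlapped. Il24, an interleukin of the IL-10 family, ranged from 15.4 to 184 against 0.941 and 0.757. Prnd, of the prion protein family, ranged from 46.8 to 683 against 0.316 and 2.86, and the carboxypeptidase gene Cpa4 from 6.54 to 85.7 against 0 and 0.119. Nppb, the B-type natriuretic peptide gene, ranged from 13.9 to 41.5 against 0.367 and 0.673, and Ggct, of glutathione turnover, from 51.7 to 416 against 18.1 and 8.99. Line 560 was the lowest plastic library for each of these 5 genes, whose adjusted p lay between 0.00381 (Nppb) and 0.0470 (Cpa4). Nppb cleared the filter on low values only through the plastic dox libraries.

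Among genes lower on plastic with dox, the 12 chosen by the same rule began with Apoc2. Apoc2, the cofactor of lipoprotein lipase, was at 5.38, 1.41 and 0.490 rescaled FPKM on plastic with dox against 168 and 98.5 in BME with dox (difference -5.51, SE 0.81, limma adjusted p = 0.0161). H2-Q10, which encodes a secreted class I molecule, was at 0.537, 0.0663 and 0 against 25.3 and 26.5 (difference -4.51, SE 0.32, adjusted p = 0.000410). Mlxipl, which encodes the carbohydrate response factor ChREBP, was at 7.26, 0.929 and 0.991 against 34.0 and 38.9 (difference -3.56, SE 0.66, adjusted p = 0.0363). Line 560 was the plastic library nearest to BME in each. Nr1i2, the xenobiotic receptor PXR, was at 2.98, 0.363 and 0.0434 against 12.4 and 12.1 (difference -2.89, adjusted p = 0.0303), and Ephx1, microsomal epoxide hydrolase, at 85.3, 40.2 and 24.1 against 442 and 251 (difference -2.90, adjusted p = 0.0254). The sulfotransferase gene Sult1d1 (-3.99), the aldo-keto reductase gene Akr1c19 (-3.68), the aldehyde dehydrogenase gene Aldh1a7 (-2.74), the ceramide synthase gene Cers4 (-2.41), the dynamin gene Dnm1 (-2.88), the GDNF family receptor gene Gfra4 (-3.36) and Naip5, an inflammasome sensor (-3.01), were lower as well, with adjusted p between 0.0207 and 0.0470.

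Of these 24 genes, 1 was called when the 5 dox libraries were fitted alone, 13 without a filter on low values, 15 with a pseudocount of 0.1, 20 with quantile normalization, 22 with median-ratio scaling and all 24 with the line as a block. Without BME dox line 700, BME dox line 889 and plastic dox line 889 in turn, 2, 5 and 6 of the 24 were called. S100a7a and H2-Q10 were called whichever of the 11 libraries was left out. So were Fxyd5, a regulator of the sodium pump (126, 192 and 325 against 15.1 and 12.8, difference 3.75), and the snoRNA gene Snora65 (203, 172 and 195 against 722 and 1003, difference -2.16), both named after their values were seen. H2-Q10, Akr1c19, Aldh1a7 and Naip5 belong to families of similar genes, among which reads may have been split.

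**Figure D3:**
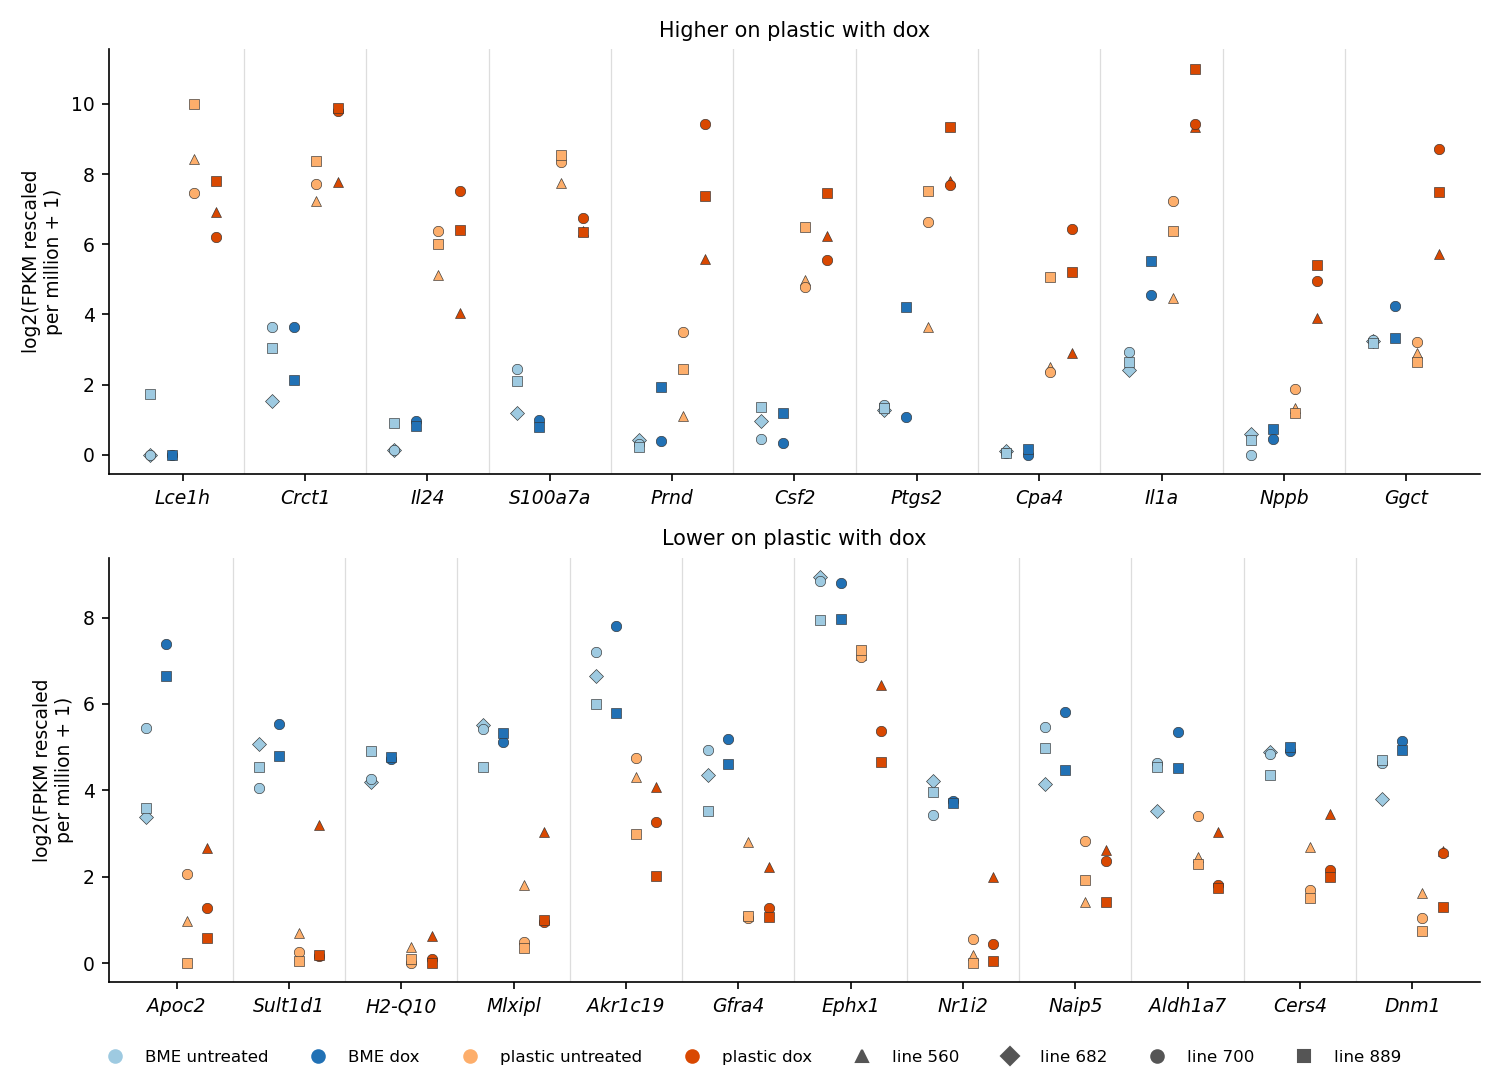
Levels of 11 of the 12 genes higher and of the 12 genes lower on plastic with dox, as log2(rescaled FPKM + 1), with 1 point per library, colours for the 4 groups and shapes for the lines. The genes were chosen so that plastic dox (dark orange) and BME dox (dark blue) do not overlap, and in 9 of the 12 higher and 10 of the 12 lower genes the untreated matrix difference was called in the same direction.

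The promoters of 5 genes described next are shown as the 250 bases before the RefSeq start site (GRCm38.p6, 5′ to 3′ on the gene's strand), because these genes were among the members of 4 gene lists that were set apart as higher on plastic. Capitals mark matches on either strand to the AP-1 letters TGANTCA in Plaur, Serpinb2 and Sprr2h, to the TEAD letters GGAATG in Ankrd1 and to the ATF4 letters TGATGNAA in Chac1.
Plaur (chr7:24462233-24462482, plus strand): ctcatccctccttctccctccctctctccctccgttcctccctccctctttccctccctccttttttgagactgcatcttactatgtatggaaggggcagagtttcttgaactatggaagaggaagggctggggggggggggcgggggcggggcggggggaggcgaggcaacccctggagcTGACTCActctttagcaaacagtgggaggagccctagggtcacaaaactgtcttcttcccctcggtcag
Serpinb2 (chr1:107511173-107511422, plus strand): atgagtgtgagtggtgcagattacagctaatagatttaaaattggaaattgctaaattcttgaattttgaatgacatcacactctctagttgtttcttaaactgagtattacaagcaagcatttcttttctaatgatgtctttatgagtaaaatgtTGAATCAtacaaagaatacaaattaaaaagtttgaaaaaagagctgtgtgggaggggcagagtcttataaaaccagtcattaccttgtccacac
Sprr2h (chr3:92385435-92385684, plus strand): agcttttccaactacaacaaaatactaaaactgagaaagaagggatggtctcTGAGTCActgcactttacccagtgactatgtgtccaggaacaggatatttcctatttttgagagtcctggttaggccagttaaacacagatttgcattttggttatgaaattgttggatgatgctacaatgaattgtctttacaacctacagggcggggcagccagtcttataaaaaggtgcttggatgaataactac
Ankrd1 (chr19:36119845-36120094, minus strand): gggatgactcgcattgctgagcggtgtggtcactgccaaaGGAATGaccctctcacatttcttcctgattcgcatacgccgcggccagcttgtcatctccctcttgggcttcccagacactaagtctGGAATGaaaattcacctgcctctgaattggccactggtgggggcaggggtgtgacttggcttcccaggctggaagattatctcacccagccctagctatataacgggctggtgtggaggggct
Chac1 (chr2:119350992-119351241, plus strand): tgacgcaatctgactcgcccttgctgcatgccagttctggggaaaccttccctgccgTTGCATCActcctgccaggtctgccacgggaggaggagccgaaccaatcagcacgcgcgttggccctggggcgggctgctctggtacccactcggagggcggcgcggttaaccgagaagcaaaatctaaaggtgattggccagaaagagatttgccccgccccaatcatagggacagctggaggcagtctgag
The match begins 69 bases before the start site in Plaur, 94 in Serpinb2, 198 in Sprr2h and 193 in Chac1, while Ankrd1 holds 2 matches, at 210 and 123 bases. The AP-1 letters were found in 6.87% of 27025 promoters of this length, in 6 of 19 promoters of the matrix protease list (4 of the 13 of tested members) and in 11 of 22 of the stratified epithelium list (6 of 15). The TEAD letters were in 12.6% of all promoters and in 7 of 17 of the YAP target list (6 of 14). The ATF4 letters were in 3.53% of all, in 5 of 21 of the stress response list (4 of 20) and in 4 of 22 of the stratified epithelium list (3 of 15). Members outside the tested set had no value for a matrix difference. Among genes set apart, the AP-1 letters were in 10.9% of 338 promoters of genes higher on plastic and in 5.25% of 724 promoters of genes lower, beside 4.76% of 9799 promoters of tested genes. The same shares were 15.7%, 10.1% and 10.7% for the TEAD letters and 3.25%, 2.07% and 1.97% for the ATF4 letters. A match describes letters and does not show binding.

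Of 20 tested proteases and inhibitors 4 were called higher and 0 lower, against 1.55% of all genes called in either direction, and the block called 11 higher and 2 lower, against 4.64% and 10.2% of all genes. Their median difference was 1.77, beside -0.23 over all tested genes, and it was the highest of 33 gene lists with the main scaling but not with the other scalings, under which interstitial matrix genes were higher (2.12 against 1.94 with median-ratio scaling and 1.88 against 1.81 with quantile normalization). The 33 leave out the enteroendocrine and tuft cell list (4 tested genes) and the lists of cell markers. Plaur, the urokinase receptor gene, was at 576, 2404 and 1578 rescaled FPKM on plastic with dox against 110.0 and 124 in BME with dox (difference 3.46, SE 0.55, limma adjusted p = 0.0215). Serpinb2, which encodes the plasminogen activator inhibitor PAI-2, was at 16.8, 19.3 and 50.6 against 0.547 and 0.504 (difference 4.12, adjusted p = 0.0207). Adam8, a membrane metalloprotease gene, was at 72.5, 76.9 and 92.4 against 12.2 and 8.15 (difference 2.88, adjusted p = 0.00757). The remaining call was Plat, tissue plasminogen activator, named after its values were seen (difference 3.24, adjusted p = 0.0257).

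Of 14 tested basement membrane genes 1 was called higher and 0 lower (median 0.28, or 0.54 with median-ratio scaling), and the block called 5 higher and 0 lower. Lamb3, a laminin chain gene, was at 192, 272 and 238 rescaled FPKM on plastic with dox against 74.1 and 79.1 in BME with dox (difference 1.58, SE 0.31, limma adjusted p = 0.0401). Lama3, a further laminin chain gene (96.6, 120.0 and 86.7 against 27.9 and 18.8), passed with the block (adjusted p = 0.00736) but not without it (0.0792). Col4a1, a type IV collagen chain gene, had a difference of 1.64 that passed with the block only (0.0121, without it 0.0835). Of 11 tested integrins 1 was called higher and 0 lower (median 0.64, 2 higher and 3 lower at unadjusted p under 0.05), and the block called 2 higher and 0 lower. Itga3, which encodes a chain of a laminin receptor, was at 249, 484 and 395 against 136 and 103 (difference 1.60, adjusted p = 0.0470), and its partner Itgb1 was at 478, 452 and 562 against 210.2 and 195 (adjusted p = 0.0911, with the block 0.0238).

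Of 6 tested interstitial matrix genes 1 was called higher and 0 lower (median 0.077, and 2.12 and 1.88 over the 5 members tested with the other scalings, under which Col1a1, at -1.70, fell below the filter), and the block called 3 higher and 1 lower. Fn1, the fibronectin gene, was at 309, 699 and 322 rescaled FPKM on plastic with dox against 19.8 and 29.9 in BME with dox (difference 4.02, SE 0.83, limma adjusted p = 0.0465). Fbln1, the fibulin-1 gene, was at 5.53, 2.65 and 0.731 against 33.5 and 27.6 (difference -3.18, adjusted p = 0.0835, with the block 0.00487). Fn1 was also the call among 6 tested EMT genes, of which the block called 3 higher and 0 lower (median 1.51). Zeb1, which encodes a repressor of epithelial genes, was low in all libraries but apart, at 2.24, 3.41 and 5.46 against 0.177 and 0.854 (adjusted p = 0.0606, with the block 0.0176).

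Focal adhesion and actin genes mostly had positive differences, and 24 of 26 lay above the median of all tested genes. Of 26 tested genes 2 were called higher and 0 lower (median 1.01), and the block called 15 higher and 0 lower. Flna, which encodes the actin crosslinker filamin A, was at 208, 341 and 224 rescaled FPKM on plastic with dox against 49.1 and 70.9 in BME with dox (difference 2.07, SE 0.40, limma adjusted p = 0.0380). The other call was the tropomyosin gene Tpm4, named after its values were seen (difference 1.26, adjusted p = 0.0415). Actn1, Cnn2 and Zyx, genes of actin-binding proteins, had differences of 1.45, 1.43 and 1.13 and passed with the block only (adjusted p = 0.00736, 0.00448 and 0.00492, and 0.112, 0.119 and 0.140 without it). The summed level of the list was 14833, 29154 and 18208 rescaled FPKM on plastic with dox and 8247 and 10002 in BME with dox.

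Of the YAP target genes, 18 of 21 lay above the median of all tested genes. Of 21 tested targets 2 were called higher and 0 lower (median 0.95), and the block called 7 higher and 1 lower. Ankrd1, a muscle-type ankyrin repeat gene often used to read YAP activity, was at 106, 89.0 and 121 rescaled FPKM on plastic with dox against 0.902 and 8.50 in BME with dox (difference 4.63, SE 0.64, limma adjusted p = 0.0114). F3, the tissue factor gene, was at 976, 822 and 918 against 204 and 104 (difference 2.63, adjusted p = 0.0465). Amotl2 and Amotl1, which encode angiomotins that bind YAP, were at 60.0, 68.5 and 69.2 against 12.8 and 12 and at 15.6, 19.1 and 12.3 against 4.68 and 1.80 and passed with the block only (adjusted p = 0.0157 and 0.0343, without it 0.0814 and 0.106).

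Of the S100 and annexin genes, 18 of 22 lay above the median of all tested genes. Of 22 tested genes 4 were called higher and 0 lower (median 1.05), and the block called 10 higher and 0 lower. S100a11, which encodes a calcium-binding partner of annexins, was the most abundant transcript of every plastic library, at 16817, 24558 and 20684 rescaled FPKM with dox against 4339 and 5775 in BME with dox (difference 2.03, SE 0.23, limma adjusted p = 0.00460). Anxa8 was at 55.7, 23.8 and 73.1 against 5.65 and 12.7 (difference 2.30, adjusted p = 0.0432). The other calls were S100a10 (1.15) and S100a16 (1.40), both named after their values were seen.

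Of 19 tested keratins and cornified envelope genes 2 were called higher and 0 lower (median 1.54), and the block called 8 higher and 2 lower. Krt80 was at 44.6, 81.7 and 60.1 rescaled FPKM on plastic with dox against 4.28 and 8.77 in BME with dox (difference 3.09, SE 0.52, limma adjusted p = 0.0257), and Lypd3, a surface protein gene of stratified epithelium, was at 42.0, 68.5 and 65.5 against 2.83 and 7.87 (difference 3.32, adjusted p = 0.0341). Krt14, the keratin of basal cells, spread widely over lines at 32.0, 5.64 and 321 against 0.575 and 1.59 (adjusted p = 0.105, with the block 0.0437). Sprr2h, of a family of near-identical genes that may share reads, was at 11.1, 6.0 and 108 against 0.193 and 0 (adjusted p = 0.0792, with the block 0.0211). Of 6 simple keratins limma called 0 (3 higher and 0 lower at unadjusted p under 0.05, and 2 higher and 0 lower with the block), and Krt7 was at 3623, 6814 and 4113 against 2365 and 1899 (adjusted p = 0.143, with the block 0.0299). Untreated, 4 of the 6 simple keratins were called higher on plastic and 1 lower, beside 3.13% and 7.72% of all tested genes. The difference between both keratin classes was not tested.

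Of 21 tested regenerative and fetal-like genes 1 was called higher and 0 lower (median 0.95), and the block called 10 higher and 0 lower. The call was Anxa8, given above. Cd44, the hyaluronan receptor gene, was at 262, 439 and 519 rescaled FPKM on plastic with dox against 49.8 and 126 in BME with dox (difference 2.29, SE 0.49, limma adjusted p = 0.0522, with the block 0.00317). Untreated, Cd44 overlapped between matrices at 117, 111 and 259 against 146, 114 and 190.0, and the change with dox of 2.25 did not pass over all genes (unadjusted p = 0.00649, adjusted p = 1.000). Emp1, an epithelial membrane protein gene, was at 417, 1174 and 498 against 406 and 136 (adjusted p = 0.290, with the block 0.0438), so line 560 on plastic was close to line 700 in BME.

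None of the intestinal stem cell genes lay above the median of all tested genes. Of 18 tested genes 0 were called higher and 2 lower (median -1.28), and the block called 0 higher and 11 lower. Prom1, which encodes CD133, was at 241, 87.3 and 111 rescaled FPKM on plastic with dox against 553 and 469.7 in BME with dox (difference -1.93, SE 0.37, limma adjusted p = 0.0376). Lrig1, which encodes a feedback inhibitor of EGF receptors, was at 66.1, 33.3 and 27.7 against 119 and 118 (difference -1.56, adjusted p = 0.0467). Smoc2, a matrix protein gene of the crypt base, was at 35.8, 0.549 and 8.53 against 142 and 194, and its difference of -4.35 passed with the block only (adjusted p = 0.134, with the block 0.00343). Slc12a2, a chloride cotransporter gene, was at 92.6, 67.5 and 46.8 against 298 and 191 (adjusted p = 0.0606, with the block 0.0233). Line 560 was the plastic library nearest to BME in all 4 genes.

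Of 22 tested enterocyte genes limma called 0 (0 higher and 7 lower at unadjusted p under 0.05, and 0 higher and 10 lower with the block), and their median difference was -1.57. Mgam, a brush border glucosidase gene, was at 57.9, 0.869 and 3.30 rescaled FPKM on plastic with dox against 66.3 and 67.8 in BME with dox (limma adjusted p = 0.153, with the block 0.00914). Slc5a1, the glucose transporter gene, was at 5.57, 0 and 0.723 against 6.32 and 12.7 (0.172 and 0.0298), and Alpi, intestinal alkaline phosphatase, at 4.02, 0.556 and 0.315 against 6.73 and 4.37 (0.155 and 0.0740). In each of these genes lines 700 and 889 were far below BME while line 560 was closer. Of 24 tested goblet and Paneth cell genes limma called 0 (0 higher and 0 lower unadjusted, 0 higher and 6 lower with the block, median -0.62). Agr2, a disulfide isomerase gene of mucous cells, was at 762, 2.37 and 91.3 against 805 and 1114 (0.357 and 0.0232), and Creb3l1, a secretory pathway factor gene, at 32.8, 13.7 and 12 against 84.2 and 43.3 (0.315 and 0.0227). Of 12 tested gastric metaplasia genes limma called 0 (0 higher and 2 lower unadjusted, 0 higher and 3 lower with the block, median -0.61). Gkn3, a gastrokine gene, was at 37.7, 0.979 and 6.57 against 418 and 131, the mucous neck cell gene Aqp5 at 17.7, 31.2 and 2.27 against 1014 and 32.9, Vsig1 at 17.9, 4.39 and 3.20 against 68.8 and 27.8 and pepsinogen C, Pgc, at 0, 0.285 and 0 against 207 and 2.35, so for Aqp5 and Pgc the BME level rests on line 700. Of 25 enteroendocrine and tuft cell genes 4 passed the filter on low values, and limma called 0 of them with or without the block (0 unadjusted).

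Among cell junction genes, 26 were tested and 1 was called higher and 0 lower (median 0.065, or 0.34 with median-ratio scaling), while the block called 3 higher and 5 lower. Cldn4, a sealing claudin gene, was at 1526, 2055 and 2661 rescaled FPKM on plastic with dox against 487 and 599.8 in BME with dox (difference 1.91, SE 0.30, limma adjusted p = 0.0203). Cldn2, a pore-forming claudin gene of the crypt, was at 201, 29.3 and 53.3 against 304 and 436 (difference -2.40, adjusted p = 0.260, with the block 0.0207). Cldn8 (-1.24) and the desmocollin gene Dsc2 (-1.28) had values on the same side as Cldn2 (adjusted p = 0.0835 and 0.109, with the block 0.0246 and 0.108).

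Targets of the pathway that SMAD4 serves were mixed by matrix while SMAD4 was expressed. Of 28 tested TGFβ and BMP response genes 2 were called higher and 0 lower (median 0.30, or 0.56 with median-ratio scaling), and the block called 6 higher and 3 lower. Pmepa1, a TGFβ-induced feedback gene, was at 231, 402 and 442 rescaled FPKM on plastic with dox against 60.3 and 88.3 in BME with dox (difference 2.23, SE 0.38, limma adjusted p = 0.0275). Smad7, the inhibitory SMAD gene, was at 26.3, 34.1 and 51.1 against 7.84 and 8.13 (difference 2.04, adjusted p = 0.0376). Both genes did not overlap between the groups. The matrix difference of Pmepa1 and Smad7 was called in the untreated libraries as well (2.19 and 1.29, adjusted p = 0.00786 and 0.0378). The ligand gene Bmp7 was at 18.1, 4.35 and 9.70 against 29.0 and 47.5 (difference -1.89, adjusted p = 0.0968, with the block 0.00616).

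Of 16 tested WNT target and feedback genes limma called 0 (0 higher and 2 lower with unadjusted p under 0.05, 0 higher and 8 lower with the block), with a median of -0.90. Rnf43, a ubiquitin ligase gene that limits WNT receptors, was at 95.5, 64.3 and 34.8 rescaled FPKM on plastic with dox against 165 and 108 in BME with dox (limma adjusted p = 0.131, with the block 0.0159), and the transcription factor gene Tcf7 at 29.2, 15.5 and 12.5 against 38.7 and 37.8 (0.113 and 0.0343). Of 26 tested MAPK feedback and immediate early genes, which read signaling below BRAF, limma called 0 (7 higher and 1 lower unadjusted, 5 higher and 1 lower with the block, median 0.092). Fosl1, an AP-1 subunit gene, was at 123, 638 and 411 against 19.4 and 21.2 (difference 3.91, adjusted p = 0.0529, with the block 0.00210). The ERK phosphatase gene Dusp5 was at 188, 1192 and 423 against 58.8 and 28.1 (0.0792 and 0.00210), and Dusp10 and Ier3 had differences of 1.91 and 1.58 (0.00658 and 0.0118 with the block). Among 5 tested EGF receptor ligands limma called 0 (3 higher and 0 lower unadjusted, 2 higher and 0 lower with the block, median 0.99), and Hbegf and Ereg were at 93.0, 221 and 159.6 against 72.9 and 34.7 and at 11.4, 15.6 and 22.4 against 6.22 and 3.07.

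Inflammatory genes had a positive median difference and interferon-stimulated genes a negative one. Of 21 tested inflammatory and chemokine genes 1 was called higher and 0 lower, Il1a being the call, and the block called 3 higher and 1 lower (median 1.33, with 0.11 in line 700 and 1.75 in line 889). Tnfaip3, which encodes the NF-κB inhibitor A20, was at 65.3, 52.1 and 77.9 rescaled FPKM on plastic with dox against 18.1 and 16.8 in BME with dox (limma adjusted p = 0.104, with the block 0.0273), and the chemokine gene Cxcl16 at 315, 229.9 and 566 against 111 and 168 (0.0944 and 0.0182). Of 26 tested interferon-stimulated genes limma called 0 (0 higher and 11 lower unadjusted, 0 higher and 9 lower with the block, median -1.33), although 14 were called lower untreated, beside 7.72% of all tested genes. The median was -2.92 in line 700 and -0.58 in line 889, so the lines differed in size. The antiviral genes Ifi27l2a (3.37, 0 and 0.702 against 67.5 and 8.87), Oas2 (2.57, 0.0464 and 1.21 against 19.7 and 4.78) and Oas1a (27.6, 19.0 and 17.9 against 66.3 and 44.7) passed with the block only (adjusted p = 0.0160, 0.0300 and 0.0145, and 0.0835, 0.0971 and 0.0835 without it). Of 14 tested antigen presentation genes 0 were called higher and 1 lower (median -0.33), and the call was the peptide transporter gene Tap1 at 9.86, 4.42 and 5.47 against 37.8 and 20.3 (difference -1.99, adjusted p = 0.0426). The proteasome subunit gene Psmb9 was at 9.43, 0.274 and 3.61 against 19.9 and 17.9 (0.159, with the block 0.00718).

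Lipid and redox metabolism genes had negative medians, and their calls came with the block only. Of 24 tested sterol genes limma called 0 (1 higher and 14 lower with unadjusted p under 0.05, 1 higher and 12 lower with the block), with a median of -1.16. The synthesis gene Cyp51 was at 125, 22.8 and 41.9 rescaled FPKM on plastic with dox against 197 and 205 in BME with dox (limma adjusted p = 0.0835, with the block 0.0137). Hsd17b7, a further synthesis gene, had the opposite sign at 37.3, 249.7 and 86.3 against 33.1 and 21.3 (0.215 and 0.00790). Of 13 tested fatty acid synthesis genes limma called 0 (0 higher and 7 lower unadjusted, 0 higher and 6 lower with the block, median -1.06), and the desaturase genes Scd2, Fads2 and Fads1 had differences of -2.63, -2.77 and -2.96. In Cyp51, Scd2 and Fads2 line 560 on plastic lay nearest to BME, as it did for the stem cell genes. Of 22 tested NRF2 targets limma called 0 (1 higher and 7 lower unadjusted, 1 higher and 7 lower with the block, median -0.90). The glutathione transferase genes Gstm3 (7.22, 0.587 and 0.573 against 122 and 26.1), Gstm1 (51.0, 24.7 and 18.6 against 363 and 186) and Gsta4 (441, 134 and 162 against 841 and 687) passed with the block only, and as members of similar families they may share reads.

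Of the integrated stress response genes, 17 of 21 lay above the median of all tested genes. Of 21 tested genes 4 were called higher and 0 lower (median 0.62), and the block called 9 higher and 1 lower. Chac1, a glutathione-degrading enzyme gene and ATF4 target, was at 51.4, 72.4 and 80.8 rescaled FPKM on plastic with dox against 2.43 and 6.06 in BME with dox (difference 3.79, SE 0.63, limma adjusted p = 0.0244). Atf5, a stress-regulated transcription factor gene, was at 57.6, 72.7 and 79.3 against 9.91 and 14.5 (difference 2.44, adjusted p = 0.00596). Psph, of serine synthesis, was at 50.4, 56.3 and 54.7 against 12.6 and 16.8 (difference 1.82, adjusted p = 0.00788). All 3 plastic lines were close together in these genes. Asns, asparagine synthetase, was also called and was named after its values were seen (difference 1.25, adjusted p = 0.0257).

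No gene of the growth and energy lists was called by limma without the block. With the block, 4.64% of all tested genes were called higher and 10.2% lower. Limma called 0 of 39 tested G1/S genes (0 higher and 2 lower unadjusted, 0 higher and 7 lower with the block, median -0.53) and 0 of 43 tested G2/M genes (0 higher and 4 lower unadjusted, 0 higher and 5 lower with the block, median -0.95). The G2/M median was -0.78 in line 700 and -2.22 in line 889. The summed level of the G2/M genes was 1571, 748 and 1021 rescaled FPKM on plastic with dox and 846 and 2704 in BME with dox, so BME line 889 stood above the other 4. Limma called 0 of 21 tested CDK inhibitor and p53 target genes (2 higher and 2 lower unadjusted, 2 higher and 1 lower with the block, median 0.019), 0 of 27 glycolysis and hypoxia genes (1 higher and 3 lower unadjusted, 2 higher and 4 lower with the block, median -0.19, which is 0.071 with median-ratio scaling), 0 of 34 oxidative phosphorylation genes (0 higher and 20 lower unadjusted, 0 higher and 5 lower with the block, median -0.63) and 0 of 46 ribosomal protein genes (0 higher and 28 lower unadjusted, 0 higher and 10 lower with the block, median -0.62). With median-ratio scaling the medians were -0.26 for G1/S, -0.70 for G2/M, -0.36 for oxidative phosphorylation and -0.35 for ribosomal protein genes. The median of all tested genes was then 0.01. Perp, a p53 target of cell junctions, was at 488, 2304 and 745 against 357 and 281 (limma adjusted p = 0.187, with the block 0.00817). The glucose transporter gene Slc2a1 was at 276, 378 and 429.9 against 154 and 194 (0.244 and 0.0167). Sdhd, a succinate dehydrogenase subunit gene, had an adjusted p of 0.0465 but a difference just short of the limit of 1, at 126, 84.7 and 93.6 against 187 and 216.

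**Figure D4:**
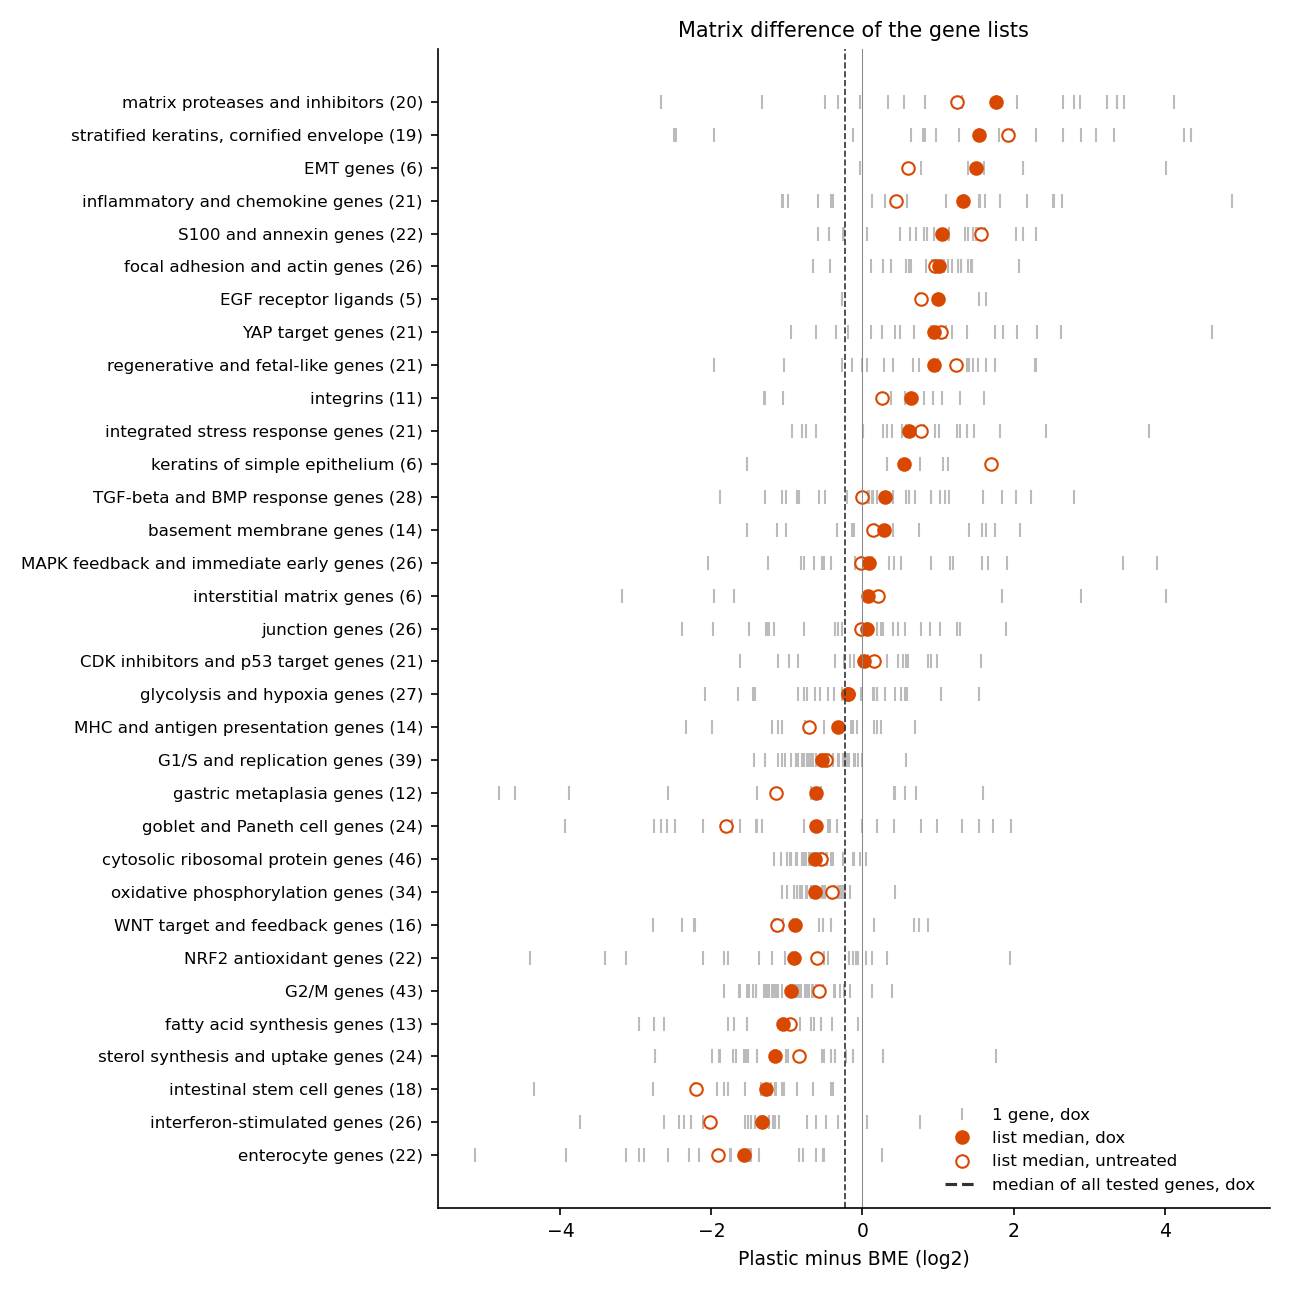
Plastic minus BME (log2) for the tested members of 33 gene lists, with a grey tick for each gene with dox, a filled circle for the list median with dox and an open circle for the median untreated, and the number of tested members in parentheses. The enteroendocrine and tuft cell list (4 tested genes) and the lists of cell markers are left out. With this scaling matrix proteases have the highest dox median (1.77) and enterocyte genes the lowest (-1.57), whereas interstitial matrix genes rank above matrix proteases with median-ratio scaling (2.12 against 1.94) and quantile normalization (1.88 against 1.81), and the dashed line marks the median of all tested genes (-0.23).

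To see which matrix differences remained with SMAD4, genes called between the untreated groups were read in the dox groups, which are other libraries of mostly the same lines. Untreated, 393 genes were higher (3.13%) and 968 lower (7.72%) on plastic, and 563 (4.49%) and 1368 (10.9%) with the block. Of these 1361 genes, 169 (12.4%) were called with dox in the same direction, beside 1.55% of all tested genes, and 1347 had the same sign, as did 10477 of all tested genes (83.6%). With dox, 892 (65.5%) differed by more than 1 in that direction, beside 17.5% of all tested genes. Their median size was 1.57 untreated, where it chose them, and 1.23 with dox. With the line as a block, 1335 of 1931 untreated calls (69.1%) were called with dox. Conversely, 169 of the 194 dox calls (87.1%) were called untreated. The share called rests on few libraries, as the number called in both was 7 without BME dox line 700 and 796 without plastic dox line 560.

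Genes called in both comparisons included many with large differences. Lce1h had 8.05 untreated and 6.97 with dox, S100a7a 6.31 and 5.60, Il24 5.43 and 5.11, Crct1 5.04 and 6.26, Ankrd1 4.82 and 4.63, and Ptgs2 4.60 and 5.63. On the lower side H2-Q10 had -4.29 untreated and -4.51 with dox, Sult1d1 -4.22 and -3.99, Mlxipl -4.28 and -3.56, Apoc2 -3.13 and -5.51, and the small RNA genes Mir760 and Snora52 -4.07 and -3.76 and -3.22 and -3.20. All of these were called in both comparisons. S100a11 (2.68 and 2.03), Chac1 (4.23 and 3.79), Flna (2.05 and 2.07), Pmepa1 (2.19 and 2.23) and Prom1 (-2.18 and -1.93) were called in both as well.

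**Figure D5:**
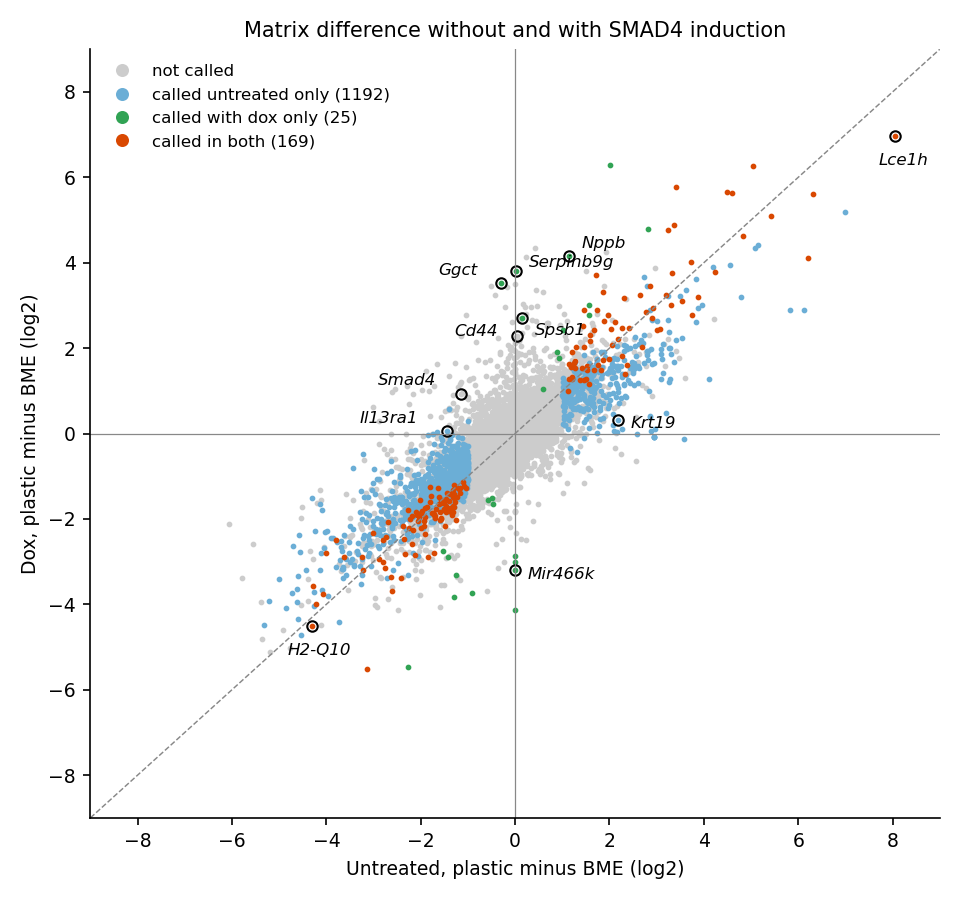
Plastic minus BME (log2) in the untreated libraries on the x axis and in the dox libraries on the y axis, with 1 point for each of the 12539 tested genes and colours for the comparison in which a gene was called. The 169 genes called in both lie near the dashed line of equality, and Krt19 lies at 2.18 untreated and 0.33 with dox.

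The test of a change in the matrix difference with dox called few genes. The change of the difference passed for 2 of the 12539 genes (0.016%; 207 genes, 1.65%, at an unadjusted p under 0.05) and for 0 with the block by limma (364 genes, 2.90%, unadjusted). Of the 1361 genes called untreated, 0 passed and 81 had an unadjusted p under 0.05, of which 75 had a smaller difference with dox, a description since the untreated values chose these genes. The median standard error of a change was 0.48, against 0.36 for a dox difference. The genes that passed were Mir466k (change -3.20, SE 0.35, limma adjusted p = 0.0436) and Mir6345 (-3.02, SE 0.35, adjusted p = 0.0436), both at an adjusted p of 0.136 with the block. Mir466k was at 8.68 and 7.75 and Mir6345 at 7.50 and 6.71 rescaled FPKM in the BME dox libraries, and both were listed at 0 in all other libraries of the fit. They passed the filter on low values only through the BME dox libraries, so these calls are not read as a change.

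Among genes called in either comparison, those with the lowest unadjusted p for a change towards plastic were as follows, and none passed over all genes. Serpinb9g, a serine protease inhibitor gene of a family with similar members, was at 9.23, 38.4 and 12.8 rescaled FPKM on plastic with dox against 0.188 and 0.346 in BME with dox and at most 0.0372 untreated (change 3.79, SE 0.65, limma adjusted p = 0.225). Nppb was at 13.9, 30.1 and 41.5 against 0.367 and 0.673 with dox and at 1.52, 2.69 and 1.29 against 0.507, 0 and 0.340 untreated (change 3.02, adjusted p = 0.464). Spsb1, which encodes a ubiquitin ligase adaptor, was at 21.3, 35.8 and 34.8 against 3.85 and 3.59 with dox and at 1.03, 3.35 and 3.61 against 2.28, 3.48 and 1.02 untreated (change 2.56, adjusted p = 1.000). In these genes the plastic dox libraries stood above the other groups. Ggct behaved alike (change 3.82, adjusted p = 1.000). Serpinb9g and Nppb cleared the filter on low values only through the plastic dox libraries, so their values are not read as a change. The IL-13 receptor gene Il13ra1 had the reverse history: it was at 11.1, 15.5 and 10.8 on plastic and 35.6, 29.4 and 41.5 in BME untreated and at 39.1, 32.5 and 41.5 against 34.5 and 38.1 with dox, so the groups were apart without dox and overlapped with it (change 1.49, adjusted p = 0.679). The transcription factor gene Onecut2 was at 0.603, 1.25 and 0.444 against 3.48, 4.50 and 2.90 untreated and at 7.57, 9.96 and 20.7 against 7.31 and 7.81 with dox (change 1.97, adjusted p = 1.000).

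In the other direction Mir378a (-2.87) and Snord23 (-4.13) were above 0 in the BME dox libraries alone (limma adjusted p = 0.0542 and 0.0606). Both cleared the filter on low values only through these libraries, so their values are not read as a change. Gm21293 and Gm21304, which have identical values, were at 6.93, 5.0 and 10.4 rescaled FPKM on plastic untreated and at 0 on plastic with dox (change -3.01, adjusted p = 0.0606). Untreated matrix calls whose dox difference lay nearest 0 included Bcl6, a transcriptional repressor gene, at 8.36, 10.7 and 12.2 against 26.3, 35.8 and 21.8 untreated and 33.1, 34.6 and 26.8 against 39.4 and 25.7 with dox (untreated difference -1.33, dox difference -0.022). Spata13, an exchange factor gene for small GTPases, went from -1.65 to 0.032 and the sulfotransferase gene Chst15 from 1.73 to 0.021. The low genes Mir378b, Tcstv3 and 1810046K07Rik went from -1.74, 2.59 and -1.84 to 0, 0 and -0.029. For these genes the choice used both values, so they are given as a description.

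Small RNA genes were described after their values were seen. Of all tested genes 0.662% were called higher and 0.885% lower on plastic with dox. Of 251 tested snoRNA, microRNA and similar genes, 2 were called higher and 23 lower, with a median difference of -1.19 (-1.10 untreated). Of 14 tested Snhg genes, which host snoRNAs, 0 were called higher and 6 lower, with a median of -1.44. Such short transcripts are not captured whole by standard RNA-Seq, and whether library preparation differed between the environments was not tested.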

How the data were processed

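RNA-Seq libraries of tumor organoids (12) were grouped by their labels. Per the labels and the methods of the study, kallisto and DESeq2 were the tools used by the authors, who deposited FPKM values in 1 table of 6 libraries per environment. The submitters' processing notes name the build mm9, and versions and annotation are not given in the sources used here. The deposited comparison tables hold fold changes and p-values and were not used. Each library was rescaled to a sum of 1000000, since the tables were normalized separately, and log2(value + 1) was tested for genes with a mean rescaled FPKM of at least 1.

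The limma package (version 3.58.1, R 4.3.3) was fitted to 11 libraries in 4 groups, which share 1 estimate of the spread, with eBayes (trend), two-sided tests and Benjamini-Hochberg adjustment over all 12539 genes. Genes counted as called had an adjusted p below 0.05 and differed by more than 1. FPKM keeps no read counts, so no counting interval is given, and about 12100000 to 16900000 reads per dox library were estimated from the steps of low values. Libraries of the same line are cultures of the same organoids, and in the check of the pairing their deviations from the group means correlated at 0.095 to 0.704 over 13 pairs (median 0.472). The 2 BME dox libraries deviate as mirror images, which fixes part of the correlations between lines, so these are not given. Nothing says that libraries were separate cultures beyond the line, so p-values measure the spread between these samples.

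The mock library was left out of the fit. Members and gene lists were chosen with earlier results of these data known. Named genes were Smad4, Krt19 and Pcp4; the 12 genes in each direction, called and set apart, with a mean level of at least 10 in the higher group and the largest smaller within-line difference; up to 4 members per list that were set apart; the 6 per direction with the lowest p for a change; and the 6 per direction called in both comparisons, with 6 untreated calls whose dox difference was nearest 0. Predicted and small RNA genes were skipped among the 12. Some genes that these rules named are not reported here. Coordinates are NCBIM37 (mm9), and promoter sequences are RefSeq (GRCm38.p6). Alternatives were the dox libraries alone, the line as a block, lines 700 and 889 alone, median-ratio scaling, quantile normalization, unscaled FPKM, a pseudocount of 0.1, no filter, the mock counted as untreated and each library left out. Removing small RNA genes and removing line 560 were chosen after seeing the data. Python 3.11.15, pandas 2.3.3 and SciPy 1.17.1 were used.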

Additional observations from a re-analysis of the deposited data

Results flagged for a closer look

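The test of a change in the matrix difference with dox passed for 2 genes, which cleared the filter on low values only through the BME dox libraries. The value of the test was -3.20 for Mir466k (log2, limma adjusted p = 0.0436) and -3.02 for Mir6345 (adjusted p = 0.0436). Both were above 0 only in the BME dox libraries among the 12 libraries, and their FPKM ratio of line 700 to line 889 was 1.24 in both. With the line as a block both adjusted p were 0.136. The number of genes that passed was 0 with the block, with FPKM as deposited, with a pseudocount of 0.1 and with lines 700 and 889 alone, and 0 to 1 when 1 library was left out (by limma, with 364, 213, 198, 428 and 135 to 423 genes at an unadjusted p under 0.05), and 5 to 11 with both other scalings, without a filter and with the mock counted.

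The mock dox library of line 682, which was left out of the main comparisons, held a signal for Smad4. Its level was 18.7 (rescaled FPKM), above the untreated BME libraries (14.3, 10.5 and 10.9) and below the BME dox libraries (26.2 and 46.0). It is a single library with no replicate, and its label names the construct but calls the treatment mock.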

How the results depend on the processing

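The count of genes called with dox (194) was 1 with the 5 dox libraries alone, 1865 with the line as a block, 1576 with lines 700 and 889 alone, 400 with FPKM as deposited, 122 without a filter, 390 with the mock counted as untreated BME and 1779 without line 560, and 10 to 1211 when 1 library was left out. It was 251 with median-ratio scaling, 218 with quantile normalization, 131 with a pseudocount of 0.1 and 164 without small RNA genes. The count set apart (1462) was 1458 to 3046 when 1 library was left out and within 1.5 times under the other alternatives that recompute it. The untreated count (1361) was 2051 with the mock counted and 281 to 1749 without 1 library. The number called in both (169) was 1335 with the block, 908 with lines 700 and 889 alone, 318 with FPKM as deposited, 97 without a filter, 320 with the mock counted and 1201 without line 560, and 7 to 796 without 1 library. The count for the change with dox (2) was 0 with the block, with lines 700 and 889 alone, with FPKM as deposited, with a pseudocount of 0.1, without small RNA genes and without line 560 (by limma, with 364, 428, 213, 198, 190 and 632 genes at an unadjusted p under 0.05). It was 7 with median-ratio scaling, 5 with quantile normalization, 11 without a filter and 6 with the mock counted, and 0 to 1 without 1 library (135 to 423 unadjusted). The cause of these shifts was not tested.

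The Smad4 difference (0.94) stayed positive and did not pass in any alternative that recomputed it, from 0.42 to 1.57 when 1 library was left out. Signs turned in 16 values of named genes. Without BME dox line 700 they were Krt19 (-0.13), Pcp4 (-1.04), Il13ra1 (-0.021), Chst15 (-0.042) and Bcl6 (0.28), and without plastic dox line 889 they were Il13ra1 (-0.023), Bcl6 (0.086), Spata13 (-0.17) and 1810046K07Rik (0.021, the same without plastic dox line 700). Without plastic dox line 560 they were Chst15 (-0.30) and Spata13 (-0.12). With the block they were Bcl6 (0.026) and Spata13 (-0.035), and Bcl6 was 0.24 with median-ratio scaling and 0.16 with quantile normalization. All of these values missed the threshold. Over all libraries left out in turn, differences ran from -0.13 to 0.78 for Krt19, -1.04 to 9.75 for Pcp4, -0.023 to 0.15 for Il13ra1, -0.30 to 0.32 for Chst15, -0.32 to 0.28 for Bcl6, -0.17 to 0.39 for Spata13 and -0.13 to 0.021 for 1810046K07Rik. List medians moved beyond their spread in 7 of 38 lists with median-ratio scaling and 5 of 38 with quantile normalization.

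With the line as a block, lines 700 and 889 are the pairs with dox. The depth is an estimate, and the 2 libraries in BME with dox limit every dox comparison.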
